A study of Mus musculus with 12 samples.

Results

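The genes described here encode the nuclear subunits of respiratory complexes II to V and the mobile electron carrier between complexes III and IV, in mouse ventricle. They were picked by gene symbol alone: the succinate dehydrogenase genes Sdha to Sdhd, every symbol starting with Uqcr, Cox4 to Cox8 or Atp5, and Cyc1 and Cycs. Of the 14957 genes in the count tables, 48 met that rule: 4 subunits of complex II, 9 of complex III with Cyc1, 17 of complex IV, 17 of complex V, and Cycs. A further 8 symbols ending in -ps were left out. One retained symbol, Cox6c2, is annotated as a processed pseudogene in GENCODE vM21.

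RNA was sequenced from the ventricles of wild-type C57Bl/6J mice, 4 per group, and read counts per gene were available for each mouse. TAC-BacNav mice had transverse aortic constriction, a banding of the aorta that loads the left ventricle with pressure, and received an AAV9 vector in which the muscle promoter MHCK7 drives BacNav, a bacterial voltage-gated sodium channel, together with the fluorescent protein mScarlet. TAC-mScarlet mice had the same surgery and a vector with mScarlet alone behind MHCK7. Sham-NT mice had sham surgery and PBS, so that constriction and vector both differ between either TAC group and Sham-NT and their effects cannot be told apart there. Age, sex and the interval between surgery and sampling were not given in the labels used here, and the labels number the mice 1 to 4 in each group without linking numbers across groups.

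Complex II passes electrons from succinate to ubiquinone, complex III from ubiquinol to cytochrome c, and complex IV from cytochrome c to oxygen. Complexes III and IV pump protons across the inner mitochondrial membrane, and complex V uses the return flow to make ATP, which the beating heart consumes continuously. Complex II is encoded entirely in the nucleus, while the other complexes also hold subunits encoded in mitochondrial DNA, which are not among the genes described here. Several complex IV subunits and the membrane ring of complex V have more than one nuclear gene, and some complex IV isoforms are typical of heart and skeletal muscle.

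The libraries held 7361063 to 11497836 counts in TAC-BacNav, 8275608 to 9813733 in TAC-mScarlet, and 5360869 to 7837342 in Sham-NT, so every Sham-NT library was shallower than every TAC-mScarlet library. The 10 ventricular cardiomyocyte markers were all expressed, and their summed level was 72291 to 95670 CPM (counts scaled to a library total of 1000000) in TAC-BacNav, 61393 to 80885 CPM in TAC-mScarlet and 94047 to 101509 CPM in Sham-NT. CPM values are scaled by the trimmed mean of M values (TMM) unless stated otherwise. Fibroblast markers, 7 genes, summed to 1404 to 2112 CPM in TAC-BacNav, 1803 to 5846 CPM in TAC-mScarlet and 1045 to 1259 CPM in Sham-NT. Of 6 macrophage markers, 3 were called higher in TAC-mScarlet relative to Sham-NT, as were 3 of the 7 fibroblast markers. Of the 10 ventricular cardiomyocyte markers, 3 were called lower. Over all tested genes, 2.65% were called higher and 2.52% lower. The 3 atrial cardiomyocyte markers summed to 82.0 to 335 CPM in TAC-BacNav, 380 to 2879 CPM in TAC-mScarlet and 35.7 to 66.7 CPM in Sham-NT. In TAC-mScarlet against Sham-NT, 1 of these 3 was called higher, and 1 had a log2 fold change below 0. In bulk ventricle, fewer cells of a type and less RNA per cell cannot be told apart.

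For these genes, 2 libraries stood apart from their own groups. Sham-NT 3 was the lowest Sham-NT library for 41 of the 48 genes, and TAC-BacNav 4 was the lowest TAC-BacNav library for 45. The median gene lay at -0.54 on the log2 scale in Sham-NT 3 and at -0.56 in TAC-BacNav 4, each against the mean of the other 3 libraries of its group. In Sham-NT 3 the shift differed with transcript length: it was -0.74 for the 31 genes with mRNAs under 1 kb, -0.13 for the 17 longer ones, and -0.44 for the 1440 other tested genes under 1 kb. TAC-BacNav 4 showed -0.69, -0.33 and -0.32 for the same 3 sets. Complex II, whose 4 mRNAs are all longer than 1 kb, was at 0.05 in Sham-NT 3 and at -0.34 in TAC-BacNav 4. What sets these libraries apart was not tested, and results are given with and without them.

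**Figure D1:**
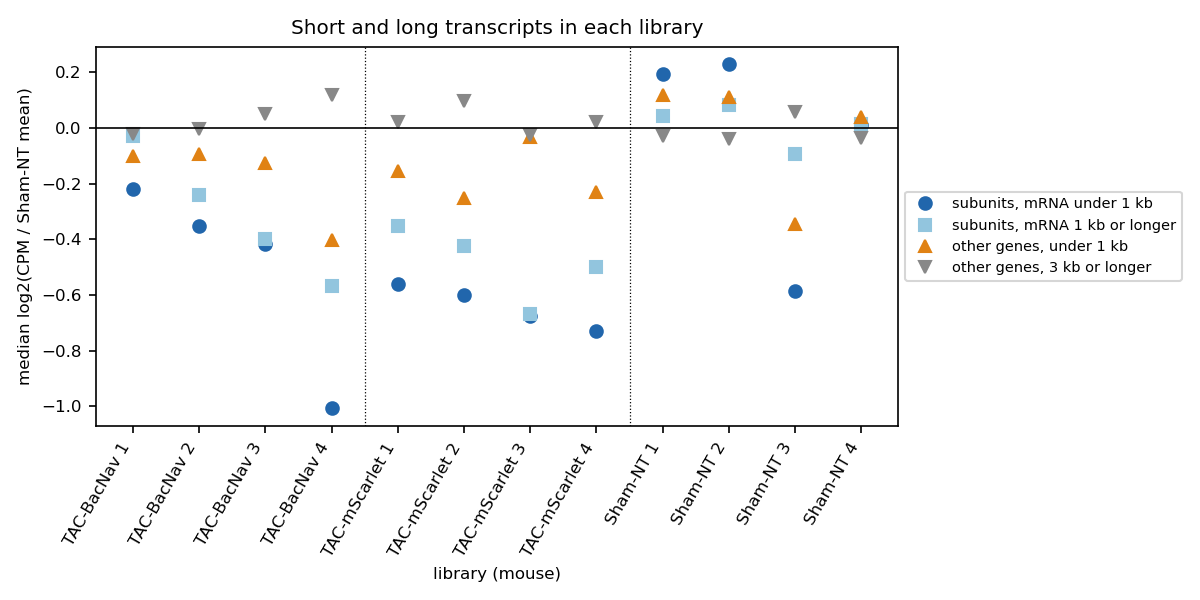
Median log2 level of genes in each library relative to the mean of the 4 Sham-NT libraries, for subunits with mRNAs under 1 kb, subunits of 1 kb or longer, and other tested genes under 1 kb and of 3 kb or longer. In Sham-NT 3 the short members sit at -0.59 and the long ones at -0.10, and other genes under 1 kb at -0.34; in TAC-BacNav 4 these are -1.01, -0.57 and -0.40.

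The promoters of the members were searched for motifs of factors known to regulate respiratory genes. RefSeq promoters (GRCm38.p6) were matched for 36 of the 48 genes, and the 250 bases before the gene start were searched on both strands for GCGCATGC (NRF1), CCGGAAG (ETS family, including GABP), AAGGTCA (estrogen-related receptors, ERR), AAGATGG (YY1) and GGGCGG (SP/KLF). The NRF1 letters were found in 6 of 36 (16.7%), against 2.56% of 27025 promoters in the table and 4.83% of those of tested genes. The ETS letters were found in 9 (25%), against 7.83% and 15.1%. ERR letters were in 2 (5.56%, against 4.70% and 3.62%), YY1 letters in 1 (2.78%, against 5.18% and 5.09%) and SP/KLF letters in 11 (30.6%, against 35.4% and 62.7%). At least one of the NRF1, ETS and ERR words was present in 14 of the 36 (38.9%), against 14.3% of all promoters and 22.0% of those of tested genes. A match describes the letters in the window and does not show that a factor binds there.

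The promoters below are those of a few members picked by hand as examples. Capitals mark NRF1, ETS and ERR letters, and each sequence is printed 5′ to 3′ on the gene's strand. The sequence stops before the first base of the gene in GENCODE vM21 where that falls inside the window. Cox7a1, with the largest called decrease, had none of the 3 words, while Atp5l had all 3 kinds. Uqcr11 lies at chr10:80406831-80407071 (minus strand), Cox6a1 at chr5:115348982-115349208 (minus), Cox7a1 at chr7:30183921-30184143 (plus), Atp5g3 at chr2:73911327-73911576 (minus), Atp5l at chr9:44920743-44920992 (minus) and Cycs at chr6:50566570-50566819 (minus). The ETS match counted for Cox6a1 lies before the RefSeq start but within the gene as GENCODE vM21 annotates it, in bases that are not printed. In Cox6a1 the capitals cover an NRF1 word on each strand that overlap in 6 bases; in Atp5l they mark, in order, NRF1, ETS and ERR letters.
Uqcr11: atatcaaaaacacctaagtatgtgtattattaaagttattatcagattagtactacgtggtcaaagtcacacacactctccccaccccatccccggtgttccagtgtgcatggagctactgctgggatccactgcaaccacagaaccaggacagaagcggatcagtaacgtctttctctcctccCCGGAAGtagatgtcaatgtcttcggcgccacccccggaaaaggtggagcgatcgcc
Cox6a1: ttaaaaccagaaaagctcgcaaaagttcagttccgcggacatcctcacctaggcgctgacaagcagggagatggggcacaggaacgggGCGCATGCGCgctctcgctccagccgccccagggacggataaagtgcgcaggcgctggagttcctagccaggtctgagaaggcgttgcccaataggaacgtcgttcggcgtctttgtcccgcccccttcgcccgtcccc
Cox7a1: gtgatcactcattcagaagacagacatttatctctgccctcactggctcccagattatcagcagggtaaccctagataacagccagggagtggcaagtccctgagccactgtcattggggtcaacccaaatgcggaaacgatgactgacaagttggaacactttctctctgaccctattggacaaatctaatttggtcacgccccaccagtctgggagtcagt
Atp5g3: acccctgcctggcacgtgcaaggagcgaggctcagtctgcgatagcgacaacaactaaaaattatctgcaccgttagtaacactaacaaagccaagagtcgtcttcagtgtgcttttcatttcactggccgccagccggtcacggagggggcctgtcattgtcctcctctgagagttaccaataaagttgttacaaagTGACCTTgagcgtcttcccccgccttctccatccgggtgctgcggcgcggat
Atp5l: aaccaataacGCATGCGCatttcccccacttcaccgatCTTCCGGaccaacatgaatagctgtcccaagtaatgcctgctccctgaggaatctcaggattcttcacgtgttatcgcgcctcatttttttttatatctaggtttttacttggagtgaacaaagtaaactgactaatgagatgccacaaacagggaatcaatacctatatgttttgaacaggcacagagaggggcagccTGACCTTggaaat
Cycs: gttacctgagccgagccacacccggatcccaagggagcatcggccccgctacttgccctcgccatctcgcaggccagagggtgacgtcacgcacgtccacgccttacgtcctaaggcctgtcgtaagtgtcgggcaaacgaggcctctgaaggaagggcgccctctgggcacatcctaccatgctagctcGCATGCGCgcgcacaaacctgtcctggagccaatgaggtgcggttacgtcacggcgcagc

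Levels within the set, compared per kb of the principal mRNA over all 12 libraries, spanned about 3 orders of magnitude. The most abundant was Cox4i1, the general isoform of complex IV subunit 4, at 3990.5 CPM per kb, followed by Atp5g3, a gene for the c-ring of complex V, at 3262, Atp5b, the catalytic beta subunit, at 2886, Cox6c at 2841 and Uqcrh, the hinge protein of complex III, at 2754. The complex II genes were lower than these, at 985 CPM per kb for Sdhb, 476 for Sdhd, 436 for Sdha and 187 for Sdhc. Other complexes also had genes in this range, among them Uqcrfs1 (983), Atp5d (578) and Uqcrc2 (302). The muscle isoforms Cox7a1 (2079.8) and Cox6a2 (2031) stood above their general counterparts Cox7a2 (1213) and Cox6a1 (124), and Cox8b (1544) above Cox8a (173). The pseudogene-annotated Cox6c2 (54.0), the Cox4i2 isoform (20.3) and the testis isoform Cox6b2 (2.73) were the lowest; Cox6b2 rested on 5 to 28 counts per library.

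The first comparison asks how pressure overload with the control vector differs from sham surgery. Together the 48 genes took 4.41% to 4.93% of all counts in TAC-mScarlet libraries, against 5.28% to 6.94% in Sham-NT libraries, with no overlap. Of the 48 genes, 14 were lower in TAC-mScarlet (29.2%) and none was higher, in the quasi-likelihood test of edgeR at a Benjamini-Hochberg adjusted p of 0.05 over 13910 genes. Of all tested genes, 5.17% were called, 2.52% lower and 2.65% higher. All 48 log2 fold changes lay below 0, with a median of -0.57 (0.00 over all genes); with scaling by library size alone, which shifted the median of all genes by 0.13, 45 lay below 0 and 8 were called lower. That scaling also changed the split of calls over all genes to 205 lower and 698 higher, against 350 and 369 with TMM. In 23 members all 4 TAC-mScarlet libraries lay below all 4 Sham-NT libraries, a separation that 6.78% of all tested genes showed in that direction.

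**Figure D2:**
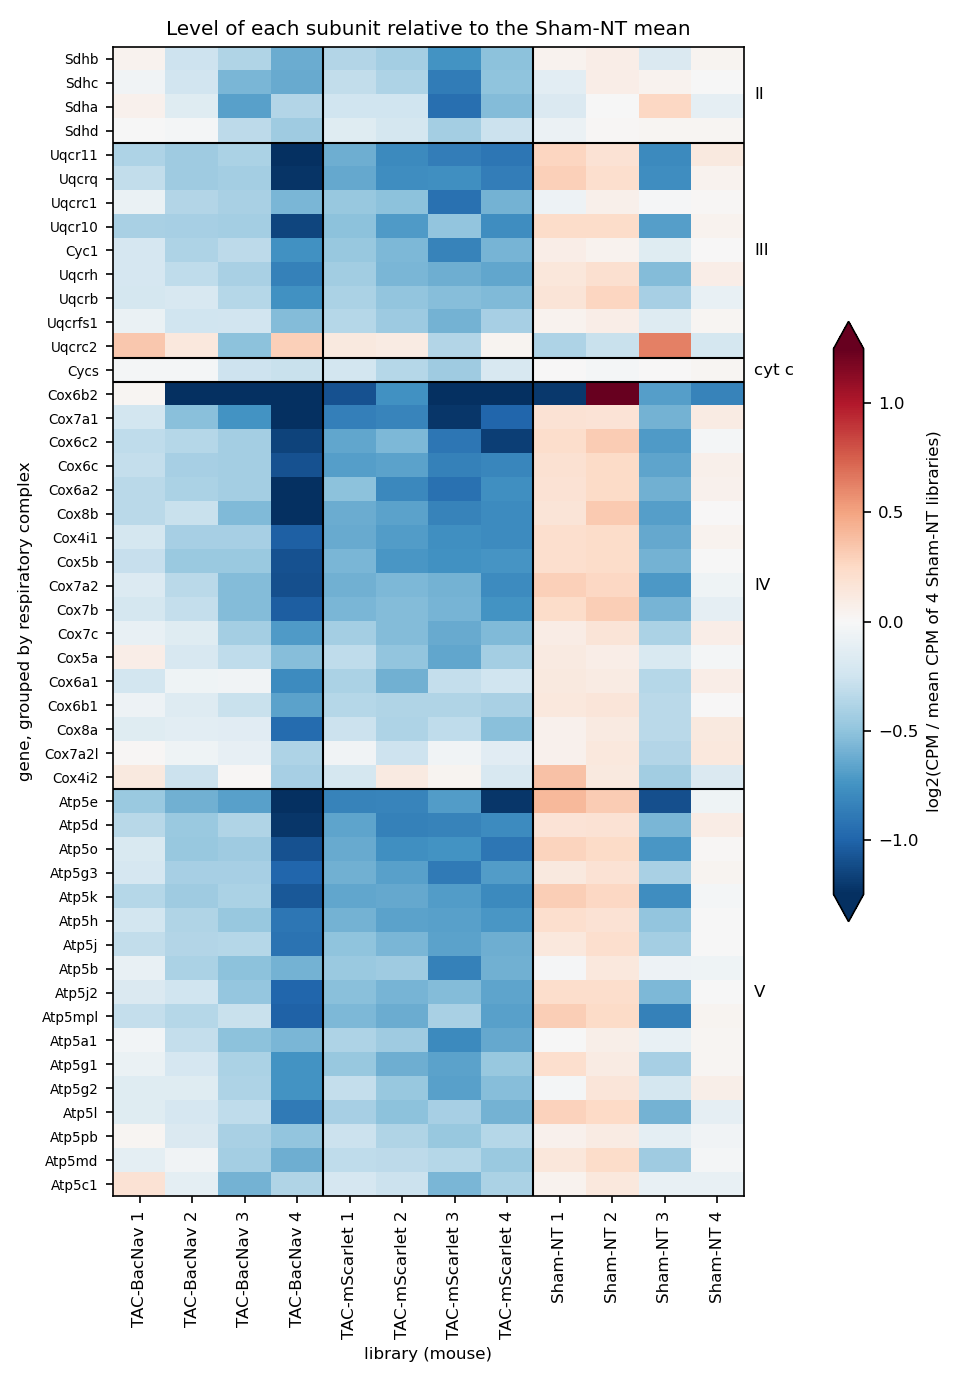
Log2 ratio of each gene's CPM to its mean over the 4 Sham-NT libraries, one row per gene grouped by complex and one column per mouse, ordered TAC-BacNav, TAC-mScarlet and Sham-NT. The TAC-mScarlet columns are lower than most Sham-NT columns in nearly every row, Sham-NT 3 is the lowest Sham-NT library for 41 of 48 genes, and TAC-BacNav 4 is the lowest of its group for 45 of 48 genes.

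Complex II was lower in every TAC-mScarlet library than in any Sham-NT library for all 4 of its genes, but none passed the adjusted test; the median log2 fold change was -0.48. Sdhb, the iron-sulfur subunit, measured 1035, 996, 798 and 937 CPM in TAC-mScarlet 1 to 4 and 1379, 1418, 1181 and 1365 CPM in Sham-NT 1 to 4. Its log2 fold change was -0.50 ± 0.14 (SE) with an adjusted p of 0.0556, just above the threshold. Sdhc, one of the 2 membrane anchors that hold the ubiquinone site, measured 576, 548, 391 and 505 CPM in TAC-mScarlet and 650.2, 757, 738 and 713 CPM in Sham-NT, a log2 fold change of -0.50 ± 0.15 (adjusted p = 0.0651). TAC-mScarlet 3 was the lowest library for both genes. Sdha, the flavoprotein that oxidises succinate, measured 1248, 1251, 771 and 1019 CPM in TAC-mScarlet and 1307, 1476, 1779.5 and 1368 CPM in Sham-NT (log2 fold change -0.47 ± 0.18, adjusted p = 0.14). Sham-NT 3 was the highest library for Sdha, in contrast to most members. Sdhd, the other anchor, had the estimate nearest 0 within the complex, with 582, 558, 483 and 538 CPM in TAC-mScarlet and 618, 655, 661 and 660.5 CPM in Sham-NT, -0.26 ± 0.12 on the log2 scale (adjusted p = 0.222).

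Complex III had 3 of 9 genes called lower and a median log2 fold change of -0.61. Those called were Uqcrc1, a core subunit, Cyc1, the cytochrome c1 subunit that hands electrons to cytochrome c, and Uqcrfs1, the Rieske iron-sulfur protein. Uqcrc1 measured 1059, 1034, 774 and 981 CPM in TAC-mScarlet 1 to 4 and 1412, 1537, 1461 and 1488 CPM in Sham-NT 1 to 4, -0.62 ± 0.14 on the log2 scale (adjusted p = 0.0245). Its Sham-NT libraries lay within a narrow range, and the 4 TAC-mScarlet libraries all lay below it. Cyc1 measured 736, 691, 573 and 682 CPM in TAC-mScarlet and 1082, 1051, 922 and 1028 CPM in Sham-NT, also without overlap (-0.61 ± 0.13, adjusted p = 0.0251). Uqcrfs1 averaged 1149.5 ± 80.4 CPM in TAC-mScarlet and 1569.8 ± 112 CPM in Sham-NT (SD, n = 4 each), -0.45 ± 0.12 on the log2 scale (adjusted p = 0.0477). The 5 small accessory subunits Uqcr10, Uqcr11, Uqcrb, Uqcrh and Uqcrq had log2 fold changes from -0.79 (Uqcr11) to -0.49 (Uqcrb) and adjusted p-values of 0.0547 to 0.0822. In each of these 5, Sham-NT 3 overlapped the TAC-mScarlet libraries while the other 3 Sham-NT libraries did not. Uqcrc2, the other core subunit, was the exception, at 611, 602, 435 and 575 CPM in TAC-mScarlet and 428, 464, 869 and 482 CPM in Sham-NT. Sham-NT 3 was the highest of the 8 libraries, and the other 3 Sham-NT libraries lay below TAC-mScarlet 1, 2 and 4. The log2 fold change of Uqcrc2 was -0.01 ± 0.23 (adjusted p = 0.982), and without Sham-NT 3 it was 0.28 (adjusted p = 0.353). Exons of Uqcrc2 overlap those of Pdzd9 on the opposite strand over 504 bases, and reads there cannot be told apart unless the counting used strand, which was not given in the sources used here.

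Cycs, the cytochrome c that carries electrons from complex III to complex IV and also triggers caspase activation when released, measured 1009, 926, 871 and 1032 CPM in TAC-mScarlet and 1186, 1162, 1188 and 1202 CPM in Sham-NT. The groups did not overlap, and the Sham-NT libraries, Sham-NT 3 included, lay close together. The log2 fold change was -0.30 ± 0.11 with an adjusted p of 0.128, so that it was not called.

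Complex IV had 4 of 17 genes called lower, Cox7a1, Cox6c, Cox4i1 and Cox5b, with a median log2 fold change of -0.63. Cox7a1, the muscle isoform of subunit 7a, had the largest called decrease of all 48 genes. It measured 633, 642, 491 and 575 CPM in TAC-mScarlet 1 to 4 and 1292, 1286, 757 and 1228 CPM in Sham-NT 1 to 4, which did not overlap although Sham-NT 3 was well below the other Sham-NT mice. Its log2 fold change was -0.96 ± 0.21 (adjusted p = 0.0245), a level that fell by 48.7%. Cox6c measured 1403, 1415, 1259 and 1284 CPM in TAC-mScarlet and 2581, 2659, 1427 and 2361 CPM in Sham-NT, -0.75 ± 0.19 on the log2 scale (adjusted p = 0.0379). Sham-NT 3 lay just above the highest TAC-mScarlet library, and the other 3 Sham-NT libraries far above it. Cox4i1 measured 2511, 2403, 2296 and 2255 CPM in TAC-mScarlet and 4502, 4565, 2499 and 4018 CPM in Sham-NT, -0.72 ± 0.19 on the log2 scale (adjusted p = 0.0422). Cox5b, a subunit on the matrix side, averaged 800.4 ± 48.8 CPM in TAC-mScarlet and 1296 ± 306 CPM in Sham-NT (SD, n = 4 each; -0.70 ± 0.19, adjusted p = 0.0426). For Cox4i1 and Cox5b, Sham-NT 3 fell below the highest TAC-mScarlet library and the other 3 Sham-NT libraries were far above it.

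Among the complex IV genes that were not called, Cox6a2, the muscle isoform of subunit 6a, was nearest the threshold at -0.74 ± 0.21 (adjusted p = 0.0521). Its levels were 1275, 1045, 957 and 1073 CPM in TAC-mScarlet and 2057, 2143, 1198 and 1885 CPM in Sham-NT. Cox8b, the muscle isoform of subunit 8, measured 474, 461, 409 and 426 CPM in TAC-mScarlet and 821, 916, 453 and 736 CPM in Sham-NT (-0.72 ± 0.22, adjusted p = 0.068). In both genes the overlap came from Sham-NT 3 alone. The general isoforms had smaller estimates, -0.38 ± 0.16 for Cox6a1 and -0.37 ± 0.17 for Cox8a, with adjusted p-values of 0.174 and 0.203. Cox6a1 measured 61.9, 53.7, 66.4 and 68.5 CPM in TAC-mScarlet and 89, 87.5, 63.8 and 86.2 CPM in Sham-NT, and Cox8a 91.6, 84.7, 88.7 and 77.1 CPM in TAC-mScarlet and 115, 119.9, 87.6 and 120.3 CPM in Sham-NT. In both, Sham-NT 3 was the lowest Sham-NT library and overlapped TAC-mScarlet. Cox7a2, the general isoform of subunit 7a, measured 670.0, 692, 678 and 592 CPM in TAC-mScarlet and 1253, 1223, 621 and 979 CPM in Sham-NT (-0.63 ± 0.21, adjusted p = 0.0937). Cox6b1, the general isoform of subunit 6b, measured 1147, 1130.3, 1133 and 1106 CPM in TAC-mScarlet and 1608, 1626, 1159 and 1473 CPM in Sham-NT (-0.38 ± 0.15, adjusted p = 0.137). The Cox7a2 groups overlapped through Sham-NT 3, and the Cox6b1 groups did not overlap. Cox5a and Cox7c, whose groups did not overlap either, were at -0.47 ± 0.14 and -0.54 ± 0.15 (adjusted p = 0.0592 and 0.0561). Cox7b was at -0.61 ± 0.19 (adjusted p = 0.0766) and Cox6c2 at -0.79 ± 0.24 (adjusted p = 0.0646). At the other end were Cox7a2l, a factor that joins complexes III and IV into supercomplexes, with 481, 416, 482 and 449.9 CPM in TAC-mScarlet and 515, 542, 383 and 544 CPM in Sham-NT (-0.12 ± 0.13, adjusted p = 0.669), and Cox4i2, the hypoxia-responsive isoform of subunit 4, at -0.05 ± 0.19 (adjusted p = 0.917). Cox4i2 measured 13.3, 16.6, 15.8 and 13.5 CPM in TAC-mScarlet and 19.8, 16.8, 11.4 and 13.6 CPM in Sham-NT, overlapping throughout. Cox6b2 measured 1.08, 1.36, 0.863 and 0.928 CPM in TAC-mScarlet and 0.991, 5.47, 1.42 and 1.28 CPM in Sham-NT, and its estimate of -1.08 ± 0.56 rested on Sham-NT 2.

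Complex V had the largest share called, 7 of 17, and all 17 had an unadjusted p below 0.05, as did 11.2% of all tested genes in that direction; the median log2 fold change was -0.58. In the catalytic head, Atp5b measured 4931, 5000.2, 3799 and 4505 CPM in TAC-mScarlet 1 to 4 and 6739.5, 7448, 6513 and 6562 CPM in Sham-NT 1 to 4, -0.58 ± 0.14 on the log2 scale (adjusted p = 0.0305). Atp5a1, the alpha subunit of the head, measured 4665, 4500.2, 3508 and 3912 CPM in TAC-mScarlet and 6068, 6411, 5735 and 6219 CPM in Sham-NT (-0.56 ± 0.14, adjusted p = 0.0373). Neither gene overlapped between the groups, and for these long mRNAs Sham-NT 3 lay close to the rest of its group. The c-ring gene Atp5g3 measured 1989, 1887, 1639 and 1865 CPM in TAC-mScarlet and 3285, 3420.4, 2273 and 3102 CPM in Sham-NT (-0.71 ± 0.17, adjusted p = 0.0295). The other c-ring genes, which encode the same mature protein, were separated but not called: Atp5g1 measured 837, 761, 729.8 and 834 CPM in TAC-mScarlet and 1345, 1248, 870.2 and 1177 CPM in Sham-NT (-0.55 ± 0.16, adjusted p = 0.0554). Atp5g2 measured 204, 180.3, 156 and 174 CPM in TAC-mScarlet and 246, 279, 215 and 263 CPM in Sham-NT (-0.49 ± 0.14, adjusted p = 0.0582).

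In the stalks of complex V, the central-stalk delta subunit Atp5d averaged 524 ± 31.1 CPM in TAC-mScarlet and 897 ± 198 CPM in Sham-NT (SD, n = 4 each; -0.78 ± 0.19, adjusted p = 0.0335). The peripheral-stalk genes Atp5h, Atp5j and Atp5o, the last encoding the oligomycin sensitivity conferral protein, were called at -0.66 ± 0.17, -0.59 ± 0.16 and -0.76 ± 0.21 (adjusted p = 0.0343, 0.0436 and 0.0461). Atp5j overlaps the exons of Gabpa on the opposite strand over 397 bases, and Atp5o overlaps other annotated genes over 945 bases. Atp5pb, the fourth peripheral-stalk gene, was at -0.37 ± 0.13 and not called (adjusted p = 0.11). The epsilon subunit Atp5e had the lowest estimate of the complex at -0.88 ± 0.28, but its Sham-NT libraries spread over 1639.7, 1539, 579.8 and 1193 CPM, against 695, 698, 763 and 534 CPM in TAC-mScarlet, and its adjusted p was 0.0781. Sham-NT 3 fell inside the TAC-mScarlet range for Atp5e. Atp5c1, the gamma subunit that turns within the head, was nearest 0 in complex V, with 2048, 1956, 1593 and 1796 CPM in TAC-mScarlet and 2433, 2585, 2213 and 2223 CPM in Sham-NT (-0.35 ± 0.16, adjusted p = 0.193). The small membrane subunits Atp5j2, Atp5k, Atp5l, Atp5md and Atp5mpl were at -0.69 (Atp5k) to -0.36 (Atp5md), none called.

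**Figure D3:**
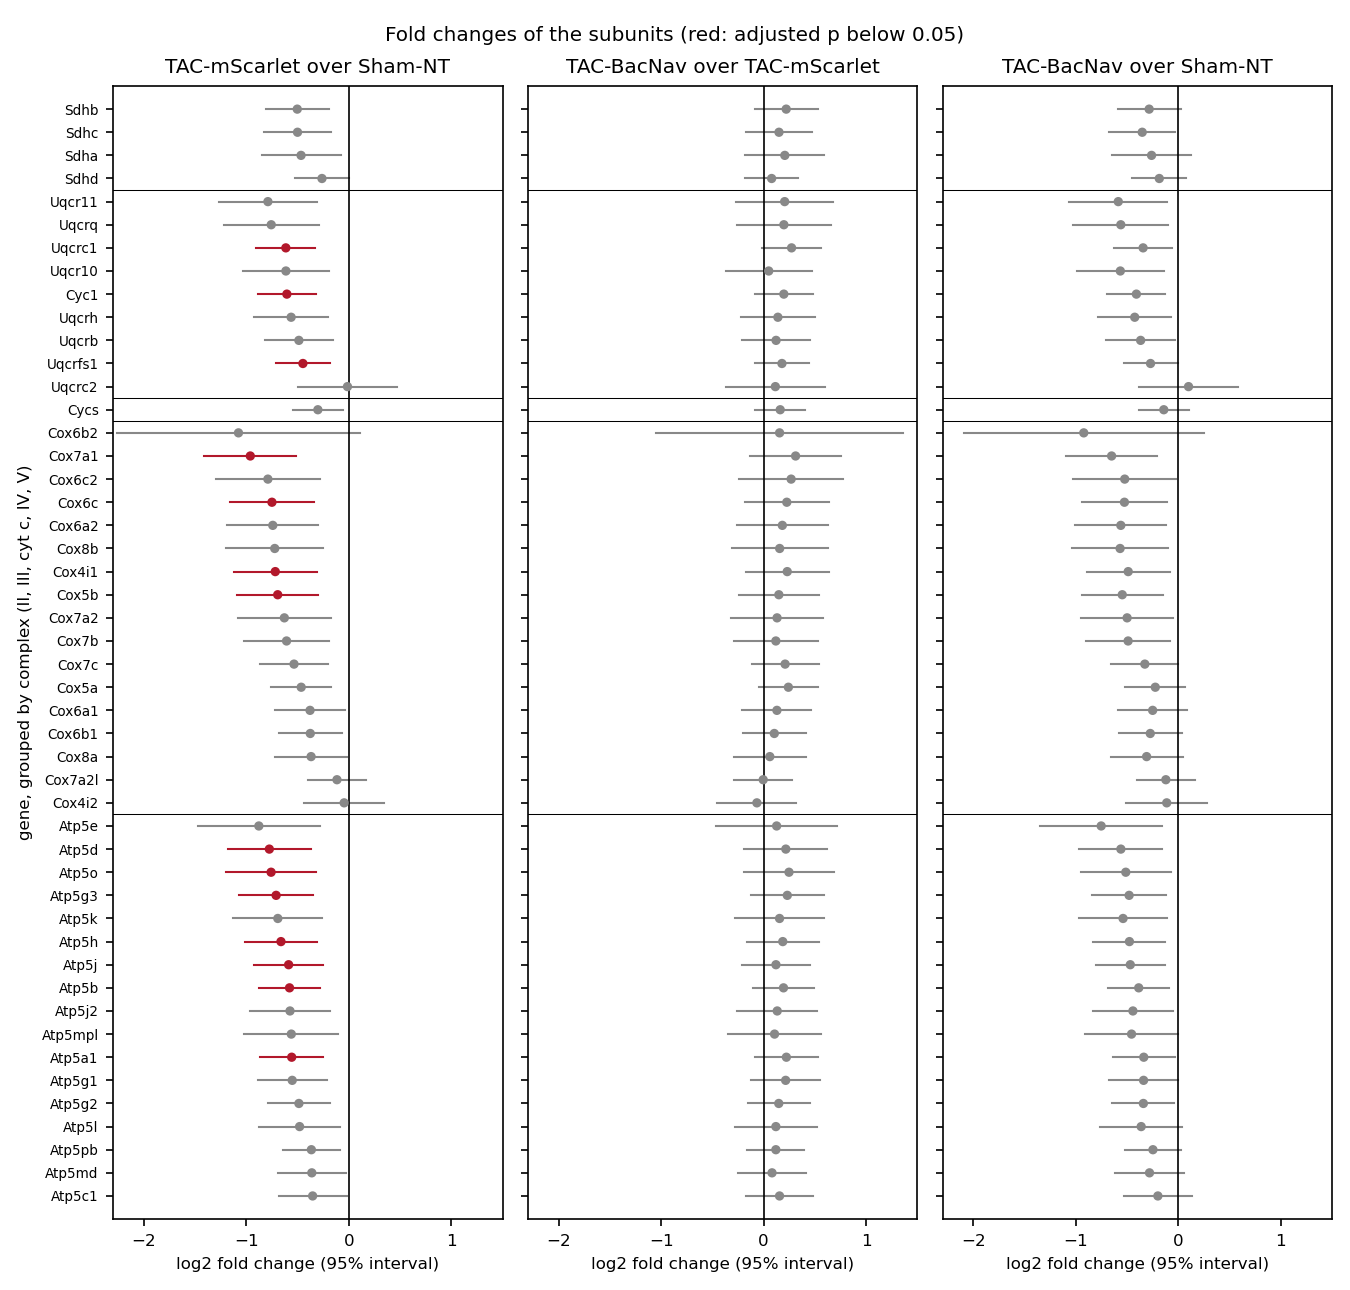
Log2 fold change of each gene with its 95% interval, grouped by complex, for TAC-mScarlet over Sham-NT, TAC-BacNav over TAC-mScarlet and TAC-BacNav over Sham-NT; red marks an adjusted p below 0.05. In the first panel 14 genes are red and all 48 points lie left of 0 (45 with library-size scaling), in the second 46 lie right of 0 with none red, and in the third 47 lie left of 0 with none red.

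The count of members called depended on single libraries. Without Sham-NT 3, 36 of the 48 genes were called lower, the 14 among them, while 4.31% of all tested genes were called lower. Without Sham-NT 3 and TAC-BacNav 4, an alternative chosen after seeing the data, 39 were called, again with all 14: 1 of 4 in complex II, 8 of 9 in complex III, 14 of 17 in complex IV and 16 of 17 in complex V, with 5.86% of all tested genes. Complex IV then had a median of -0.81 and complex II of -0.43. Of the 25 genes whose groups overlapped, 22 did so through Sham-NT 3 only, and the others were Uqcrc2, Cox4i2 and Cox6b2. All TAC-mScarlet libraries lay below Sham-NT 1, 2 and 4 for 45 members, and for 13.4% of all tested genes. Leaving out another library had the opposite effect: no member was called without mouse 2 or mouse 4 of Sham-NT, or without mouse 3 or mouse 4 of TAC-mScarlet, 1 without Sham-NT 1, 5 without TAC-mScarlet 2 and 7 without TAC-mScarlet 1. Over all tested genes those fits called between 3 and 296 genes lower, and at least 47 members lay below 0 in each.

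By mRNA length, the median log2 fold change in this comparison was -0.63 for members under 1 kb and -0.50 for longer members, against -0.14 for other genes under 1 kb and 0.00 for other genes of 1 to 3 kb. With each library's trend on mRNA length as an offset, the median of the members was -0.43. In that fit 20 members were called lower, and 2.99% of all tested genes. The summed level of the 48 genes relative to that of the cardiomyocyte markers was -0.76 to -0.56 on the log2 scale in TAC-mScarlet and -0.81 to -0.43 in Sham-NT libraries, which overlap. The part of the markers' change in these results was not tested. Libraries also differed in Fos, an immediate early gene. Scaled by library total alone, Fos was at or above 20 CPM in TAC-BacNav 1 and 2, TAC-mScarlet 1 to 3 and Sham-NT 1 and 2. Among those high libraries alone 34 members were called lower (2.99% of all tested genes), and among the others, where TAC-mScarlet had 1 library, none was (0.133%), with medians of -0.71 and -0.46.

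**Figure D4:**
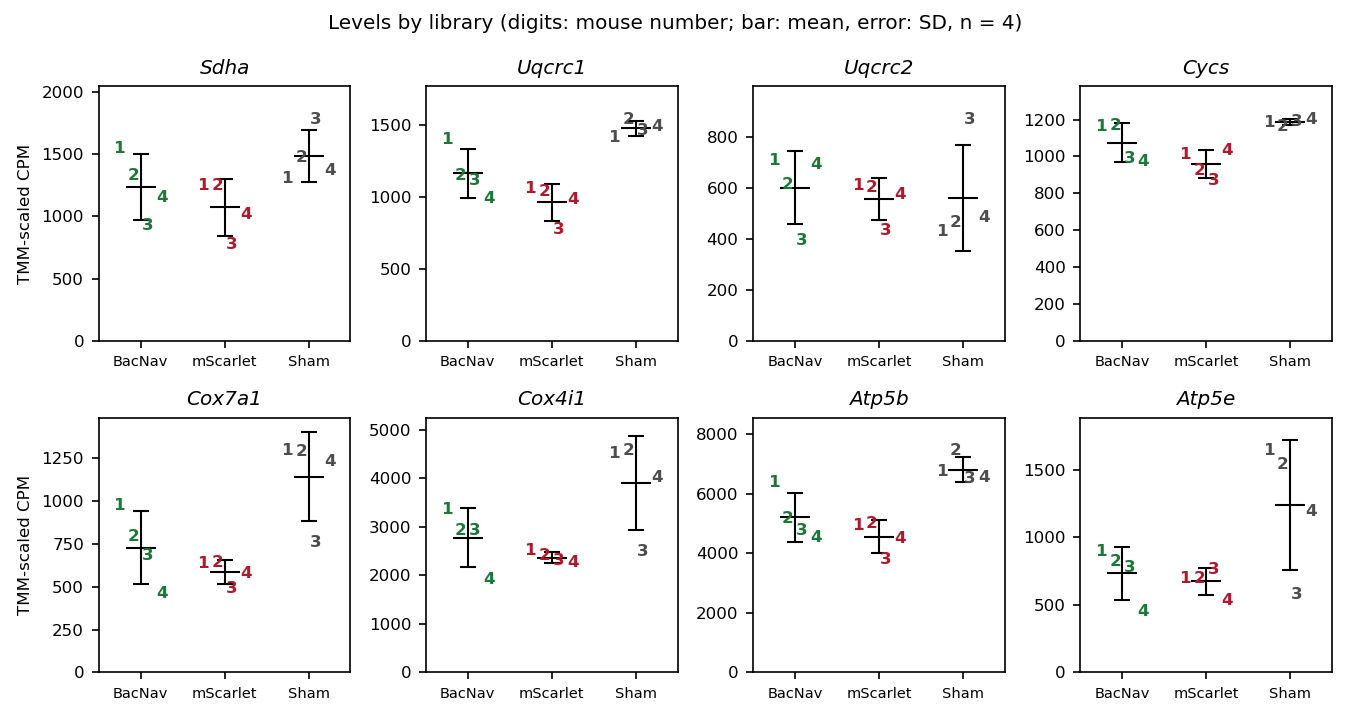
CPM of 8 genes in every mouse, by group, with numbers marking mice 1 to 4 and bars the mean and SD (n = 4). Uqcrc1 and Atp5b are lower in all 4 TAC-mScarlet mice than in any Sham-NT mouse, Cycs differs little among Sham-NT mice, and for Cox4i1, Cox7a1 and Atp5e mouse 3 of Sham-NT and mouse 4 of TAC-BacNav are the lowest of their groups, while Uqcrc2 in Sham-NT is highest in mouse 3.

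Ratios between isoforms within a library do not depend on how libraries are scaled, and 8 pairs were compared. Such ratios can still shift with transcript length where the mRNAs differ, as for Atp5g1 (2675.5 bases) and Atp5g3 (718.5 bases). They can also shift with the mix of cells in bulk ventricle, and neither part was tested. In each pair and comparison the log2 ratio of counts was compared with a two-sided exact permutation test; the 70 ways to split 8 libraries cannot give a p below 0.0286, and p-values were adjusted over 24 tests. No ratio passed after adjustment (smallest adjusted p = 0.171). Cox4i2 over Cox4i1 was -7.56, -7.17, -7.18 and -7.38 in TAC-mScarlet 1 to 4 and -7.82, -8.08, -7.77 and -8.20 in Sham-NT 1 to 4. The groups did not overlap, and the mean ratio was 0.64 higher in TAC-mScarlet (exact permutation p = 0.0286). Cox7a1 over Cox7a2 was -0.08, -0.11, -0.47 and -0.04 in TAC-mScarlet and 0.04, 0.07, 0.29 and 0.33 in Sham-NT. It was lower in all 4 TAC-mScarlet libraries, by 0.36 on average (exact permutation p = 0.0286); without Sham-NT 3 the difference was -0.32. In TAC-BacNav the Cox7a1 ratio was 0.10, -0.02, -0.04 and -0.04, a mean 0.18 above TAC-mScarlet (exact permutation p = 0.0571), with TAC-BacNav 1, 2 and 4 above the highest TAC-mScarlet library and TAC-BacNav 3 level with it. Without TAC-mScarlet 3, whose ratio was far below the others, that difference was 0.078.

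The other muscle to general pairs went the same way as Cox7a1 in TAC-mScarlet against Sham-NT without separating. Cox6a2 over Cox6a1 was lower by 0.34 (exact permutation p = 0.0857) and Cox8b over Cox8a by 0.32 (exact permutation p = 0.114). Cox7a2l over Cox7a2 was 0.47 higher in TAC-mScarlet (exact permutation p = 0.0571). For the c-ring, Atp5g1 over Atp5g3 was 0.16 higher and Atp5g2 over Atp5g3 0.21 higher in TAC-mScarlet (exact permutation p = 0.0571 for each). Cox6b2 over Cox6b1 was lower by 0.41 with 5 to 28 counts of Cox6b2 behind it (exact permutation p = 0.6). In TAC-BacNav against TAC-mScarlet the differences of these 6 pairs lay between -0.10 and 0.08, and Cox4i2 over Cox4i1 was lower by 0.27 in TAC-BacNav (exact permutation p = 0.143).

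**Figure D5:**
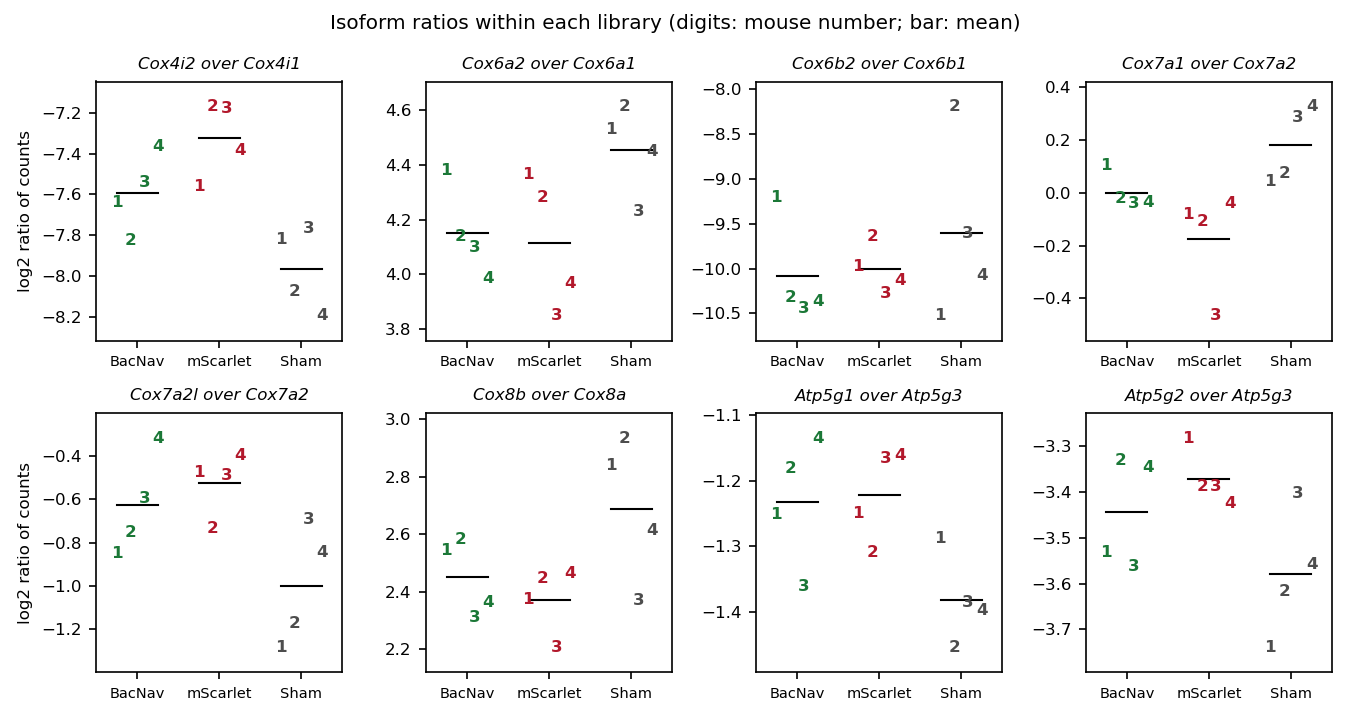
Log2 ratio of counts of 8 isoform pairs in each mouse, by group from TAC-BacNav and TAC-mScarlet to Sham-NT. For Cox4i2 over Cox4i1 and Cox7a1 over Cox7a2 the TAC-mScarlet and Sham-NT mice do not overlap, the first pair being higher and the second lower in TAC-mScarlet.

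The second comparison asks what the BacNav transgene adds in banded hearts. No member was called in TAC-BacNav against TAC-mScarlet by edgeR's quasi-likelihood test, where the share called over all genes was 0%, and none had an unadjusted p below 0.05, against 3.36% of all genes. DESeq2 and limma-voom also called none of the 48, and called only 5 and 0 of all 13910 tested genes. Of the 48 estimates, 46 lay above 0, with a median of 0.16 (0.00 over all genes). The mean of TAC-BacNav lay between those of TAC-mScarlet and Sham-NT for 45 members and for 54.1% of all tested genes. The exceptions were Uqcrc2, Cox7a2l and Cox4i2. This comparison and the first share the TAC-mScarlet libraries, and the first and last share the Sham-NT libraries.

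The member with the smallest p was Uqcrc1, at 1397, 1147, 1115 and 991 CPM in TAC-BacNav 1 to 4 and 1059, 1034, 774 and 981 CPM in TAC-mScarlet 1 to 4, 0.27 ± 0.13 on the log2 scale (unadjusted p = 0.0602, adjusted p = 1.00). TAC-BacNav 1 to 3 were above every TAC-mScarlet library and TAC-BacNav 4 was not. Cox7a1 had the largest estimate, 0.31 ± 0.21, at 970.0, 794, 679 and 463 CPM in TAC-BacNav and 633, 642, 491 and 575 CPM in TAC-mScarlet. Its TAC-BacNav libraries ranged more widely than the TAC-mScarlet ones, with mouse 4 below all of them. Cox5a measured 510.1, 418, 386 and 332 CPM in TAC-BacNav and 385, 341, 307 and 358 CPM in TAC-mScarlet (0.24 ± 0.14). Atp5a1 measured 5984, 4968, 4275 and 4116 CPM in TAC-BacNav and 4665, 4500.2, 3508 and 3912 CPM in TAC-mScarlet (0.22 ± 0.14). Sdhb measured 1375, 1114, 1027 and 871 CPM in TAC-BacNav and 1035, 996, 798 and 937 CPM in TAC-mScarlet (0.22 ± 0.14). All 3 overlapped, and in each TAC-BacNav 1 was the highest of the 8 libraries. The estimates had 95% intervals reaching 0.77 at most, Cox6b2 aside, and down to -0.46, and every interval included 0.

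By complex, the medians were 0.18 for complex II, 0.18 for complex III, 0.16 for complex IV and 0.16 for complex V. The 4 TAC-BacNav mice differed more among themselves than these medians. TAC-BacNav 1 was above all 4 TAC-mScarlet libraries for 48 of 48 members, against 21.8% of all tested genes, and TAC-BacNav 4 was below all 4 for 35 members, against 21.1%. The 48 genes took 5.92%, 5.51%, 5.03% and 4.17% of the counts of TAC-BacNav 1 to 4, and 4.93%, 4.90%, 4.41% and 4.47% of those of TAC-mScarlet 1 to 4. TAC-BacNav 1 to 3 thus exceeded every TAC-mScarlet library and TAC-BacNav 4 fell below them all. The cardiomyocyte markers summed to 95670, 81551, 80083 and 72291 CPM in TAC-BacNav 1 to 4, in the same order. Relative to those markers, the summed level of the 48 genes averaged -0.70 on the log2 scale in TAC-BacNav (-0.87 to -0.59). In TAC-mScarlet it averaged -0.69 (-0.76 to -0.56). The markers' own median log2 fold change in this comparison was 0.12. The part of the markers' change in the members' estimates was not tested. Without TAC-BacNav 4 the median of the members was 0.29 and all 48 lay above 0, but none was called; without both that library and Sham-NT 3 the median was 0.28 and the adjusted p-value of Cox7a1 was 0.584. Within the libraries with high Fos the median was 0.33. The others, TAC-BacNav 3 and 4 against the single library TAC-mScarlet 4, gave 0.00 with 23 members below 0, and the difference between these medians was not tested.

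The last comparison sets the treated banded hearts against sham hearts. No member was called in TAC-BacNav against Sham-NT by edgeR's quasi-likelihood test, where 0.0144% of all genes were called, none of them lower; 30 of the 48 members had an unadjusted p below 0.05 with a lower level, against 5.31% of all genes. DESeq2 and limma-voom called none of the 48 either, and called only 0.0863% and 0% of all tested genes lower. The smallest adjusted p was 0.367, 47 members lay below 0, and the median was -0.40 (0.01 over all genes). Only Uqcrc1, Cyc1 and Atp5b had all 4 TAC-BacNav libraries below all 4 Sham-NT libraries, a separation seen in 2.37% of all tested genes.

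The members with the smallest p here were Cox7a1, Cyc1, Atp5j, Cox5b and Atp5d. Cox7a1 was 970.0, 794, 679 and 463 CPM in TAC-BacNav and 1292, 1286, 757 and 1228 CPM in Sham-NT (-0.65 ± 0.21, unadjusted p = 0.00701). Cyc1 was 882, 779, 811 and 603 CPM in TAC-BacNav and 1082, 1051, 922 and 1028 CPM in Sham-NT (-0.41 ± 0.13, unadjusted p = 0.0076). The Cox7a1 groups overlapped through TAC-BacNav 1 and 2 and Sham-NT 3, and the Cyc1 groups did not. Atp5j was 1233, 1189, 1190.4 and 807 CPM in TAC-BacNav and 1679, 1768, 1139 and 1528 CPM in Sham-NT (-0.47 ± 0.16). Cox5b was 1061, 943, 938 and 608 CPM in TAC-BacNav and 1503, 1523, 864 and 1295 CPM in Sham-NT (-0.55 ± 0.19). Atp5d was 704, 651, 693 and 385 CPM in TAC-BacNav and 1007, 1020.1, 604 and 959 CPM in Sham-NT (-0.56 ± 0.19). In these 3 genes TAC-BacNav 1 to 3 lay close together, TAC-BacNav 4 far below them, and Sham-NT 3 was the only Sham-NT library to overlap the TAC-BacNav libraries. Without both of the libraries that stood apart the median of the members was -0.38, and still none was called.

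By complex, the median in TAC-BacNav against Sham-NT was -0.27 for complex II, -0.41 for complex III, -0.49 for complex IV and -0.44 for complex V. Uqcrc2 was the member above 0, at 0.10 ± 0.23 (adjusted p = 0.893). By mRNA length the median was -0.48 for members under 1 kb and -0.28 for longer members, against -0.16 for other genes under 1 kb.

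Genes that serve the same complexes were followed in 4 lists. Of 37 tested genes listed as subunits of complex I, which feeds the same chain from NADH, 16 were lower in TAC-mScarlet than in Sham-NT. The median log2 fold change was -0.58, next to -0.57 for the 48 members. That list includes Ndufa4, whose protein is assigned to complex IV, at -0.55 ± 0.21 and not called. Ndufv1, a flavoprotein at the entry of electrons, was at -0.63 ± 0.14 and Ndufa13 at -0.85 ± 0.20 (edgeR adjusted p = 0.0245 and 0.0305). Of 39 tested assembly factors of complexes II to V, 3 were lower and 1 was higher, with a median of -0.13; over all tested genes 2.52% were called lower and 2.65% higher. The lower ones were Cox10, which makes heme O for complex IV, at -0.51 ± 0.12, Cmc2 at -0.50 ± 0.14 and Tmem70, needed for assembly of complex V, at -0.38 ± 0.10 (edgeR adjusted p = 0.0258, 0.0491 and 0.0442). The higher one was Cox19, linked to copper delivery to complex IV, at 0.59 ± 0.15 (edgeR adjusted p = 0.0342). Of 24 carriers, porins and import genes, 2 were lower, the adenine nucleotide carrier Slc25a4 and the mitochondrial creatine kinase Ckmt2, and the median was -0.19. Of 18 regulators of mitochondrial biogenesis, 2 were lower: the coactivator Ppargc1a at -0.89 ± 0.23 and the estrogen-related receptor Esrra at -0.52 ± 0.13 (edgeR adjusted p = 0.0426 and 0.0331). Ppargc1a averaged 107 CPM in TAC-BacNav, 65.0 CPM in TAC-mScarlet and 120.4 CPM in Sham-NT. Over the 18 regulators the median log2 fold change in TAC-BacNav against TAC-mScarlet was 0.11, and none was called, Ppargc1a included. Nrf1 and Gabpa, whose motifs were searched above, had log2 fold changes of -0.12 ± 0.14 and 0.01 ± 0.13 and were not called. None of these genes was called in TAC-BacNav against TAC-mScarlet, where the medians of the 4 lists lay between 0.04 and 0.19.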

How the data were processed

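Bulk RNA-seq counts of 12 ventricles, 4 mice per group, were analysed. The authors' deposited values are raw read counts per gene, 1 table per mouse; the submitters' processing notes name HISAT2 and featureCounts, without versions. Those notes name a human genome build although the gene IDs are mouse, so positions and mRNA lengths were taken from GENCODE vM21 (GRCm38). The strand setting of the counting was not stated; exons of 14 members overlap another gene, and 5 members have named pseudogenes.

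The tables held 14957 genes. The lowest total over the 12 libraries was 30 counts, and genes below that are not analysed here. Of the 14957, 13910 passed filterByExpr by group, all 48 members among them. One edgeR 4.0.16 quasi-likelihood fit (robust, TMM scaling, R 4.3.3) covered all 12 libraries, and p-values were adjusted over all tested genes by the Benjamini-Hochberg method at 0.05. Intervals are 95% t intervals with the test's degrees of freedom. Values per gene, apart from Fos, are TMM-scaled CPM, ± SD for groups and ± SE for log2 fold changes. Isoform ratios used a pseudocount of 0.5 and exact permutation tests (scipy 1.17.1). DESeq2 1.42.0 and limma-voom 3.58.1 were alternatives. The fit was also run on data simulated with known fold changes and genes drawn independently. Such data lack the shifts that members share within libraries, and no result here rests on that run.

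The members, gene lists and tests were chosen with earlier results of these data known. Genes named with every library's value were isoform pair members, in each complex the pair of genes with the smallest p and the one nearest 0, and the 5 smallest p-values of the other comparisons. Sdha and Atp5e were added after their values were seen. Total counts of 5360869 to 11497836 per library set the precision, and only Cox6b2 was near the counting limit.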

Additional observations from a re-analysis of the deposited data

Results flagged for a closer look

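In 17 of 144 combinations of a member and a group, 1 mouse lay far from the other 3. The same held in 3 of 24 combinations of an isoform ratio and a group. The gap to the nearest mouse, divided by the group's range, exceeded Dixon's 95% critical value. Chance gives about 1 in 20 for a single combination. The combinations are not independent, since TAC-BacNav 4 was the lowest of its group for 45 members and Sham-NT 3 for 41. The share flagged over all tested genes was not computed, so these counts are not compared with chance. TAC-BacNav 4 was the low one for 9 members: the complex III accessory subunits Uqcr10 (0.954) and Uqcr11 (0.923), the complex IV genes Cox6a2 (0.874), Cox6c2 (0.833) and Cox8a (0.969), and the complex V genes Atp5d (0.833), Atp5j (0.898), Atp5k (0.855) and Atp5mpl (0.878). Sham-NT 3 was the low one for Cox6a1 (0.889), Cox7a1 (0.880), Cox7c (0.831) and Atp5d (0.852), and the high one for Uqcrc2 (0.878). TAC-mScarlet 1 was high for Cox5b (0.846), Sham-NT 1 was low for Sdhd (0.871) and Sham-NT 2 was high for Cox6b2 (0.903), a gene with few counts. Among the ratios, Cox7a1 over Cox7a2 was high in TAC-BacNav 1 (0.856) and low in TAC-mScarlet 3 (0.845), and Cox6b2 over Cox6b1 was high in TAC-BacNav 1 (0.903).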

How the results depend on the processing

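In TAC-mScarlet against Sham-NT, 14 members were called lower, and 2.52% of all tested genes. The count of members was 35 with DESeq2 (5.1% of all tested genes called lower), 8 with limma-voom (1.95%) and 8 with library-size scaling (1.47%). It was 23 with the replicate block (3.21%), 38 with the immediate early gene side as a term (5.38%) and 34 within the Fos-high libraries (2.99%). It was 39 without Sham-NT 3 and TAC-BacNav 4 (5.86%), and 0 to 36 with 1 library left out (0.0212% to 4.31%). With DESeq2's size factors, no filter, thinned counts, a length offset or the pair of groups alone it was 14 to 21 (2.36% to 2.99%). No member was called in the other comparisons under the replicate block. Deviations from group means correlated at -0.29 to 0.38 between libraries of the same mouse number in different groups. Between libraries of different numbers the correlations were -0.37 to 0.51. These overlapping ranges cannot tell whether mouse numbers pair the samples.

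Single values changed sign. For Uqcrc2 in TAC-mScarlet against Sham-NT they were 0.10 with library-size scaling, 0.042 with limma-voom, 0.030 with the immediate early gene term, 0.30 within the Fos-high libraries, 0.28 without both libraries and -0.12 to 0.28 with 1 library left out. For Cox4i2 they were 0.087 with library-size scaling, 0.0061 with limma-voom, 0.093 within the Fos-low libraries, 0.12 with the length offset and -0.17 to 0.095 with 1 left out. In TAC-BacNav against TAC-mScarlet, the Fos-low libraries gave -0.044 for the complex II median, -0.017 for complex IV, -0.0036 for Cox5a and -0.016 for Cox7a1. Among ratios there, Cox6b2 over Cox6b1 was 0.20 within the Fos-high libraries and -0.37 to 0.045 with 1 left out, Cox6a2 over Cox6a1 -0.054 to 0.12, and Atp5g1 over Atp5g3 0.026 within the Fos-high libraries and -0.043 to 0.033; in TAC-mScarlet against Sham-NT, Cox6b2 over Cox6b1 was -0.72 to 0.062. The cause was not tested. Each called member kept its sign with any 1 library left out, and lost its call in at least 4 of 8 such fits.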
